A study of Mus musculus with 16 samples.

Results

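Forebrain position is read here from 9 of the 57132 gene identifiers counted: Emx1, Emx2, Lhx2, Pax6, Otx1, Nr2f1, Nr2e1, Six3 and Gsx2. They were chosen by name, as transcription factors known to mark or pattern telencephalic and other forebrain stem cells, and the rule uses no measured value. Earlier results of these data were known when the choice was made. All 9 were found in the count files, and 6 of them (Emx2, Lhx2, Pax6, Otx1, Nr2f1 and Nr2e1) passed the filter on low counts. Emx1, Six3 and Gsx2 stayed under it and are given as raw counts. The cells were mouse neural stem cells, and 12 RNA libraries were made from them, 6 under the label gRNA and 6 under control, with 3 of each in batch 2 and 3 of each in batch 1. The treatment labels of all 12 libraries also carry the letters GF, which they do not spell out, and the series title names self-renewing conditions and an agent called TAPIR. The labels do not explain TAPIR, give no gene that the guide RNA targets, name no strain, line, age or brain region of origin, and do not say what separates the 2 batches. Separate cultures are not stated for the libraries of a group, so the p-values rest on a spread between libraries that may be technical. Ribosome footprints of 4 further libraries were not used for these genes.

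During development the early forebrain is divided along its axes by overlapping gradients of such factors, each of which binds DNA and sets which progenitors give rise to which structure. Emx1 and Emx2 mark the dorsal telencephalon, or pallium, which forms the cortex, while Gsx2 marks the ventral telencephalon, or subpallium, which forms the striatum and many interneurons. Neural stem cells in culture can keep part of the regional code of the tissue they came from, which is why these genes are read as a record of position.

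Libraries held 8414028 to 19454390 read counts in genes. The share of reads outside annotated genes was 8.83% to 12.7% in batch 2 and 18.95% to 25.07% in batch 1. The labelled cell type was checked with Sox2, a factor of neural progenitors, at 148 ± 22.5 CPM (read counts scaled to a common library size with edgeR's TMM factors) in batch 2 and 151 ± 17.1 CPM in batch 1 (mean ± SD of 6 libraries), and with Nes, their intermediate filament, at 565 ± 28.9 CPM in batch 2 and 585 ± 111 CPM in batch 1. Sox2 and Nes are 2 of 11 stem and progenitor markers tested between the batches. In batch 2, 7 of the 11 were lower, 1 was higher and 3 were not called, beside 33.1% lower and 28.4% higher of all genes tested. Control library 6, of batch 2, stood apart from the other libraries of its batch in 3 of the 6 tested factors, and results that rest on it are given without it as well. CPM values are not divided by gene length, so the level of a gene is compared only with its own level in other libraries. Sums over markers, and the part of a gene in such a sum, are shares of read counts and not of transcripts.

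The sequences that lie before the transcription starts of these genes show what the factors share beyond their names. RefSeq promoter entries (build GRCm38.p6) were found for 8 of the 9 factors, with 11 starts in all. Otx1 has no entry. The windows shown are the 250 bases before the start, read 5′ to 3′ on the gene's strand, with each CG dinucleotide in capitals. The first 3 belong to factors that were lower in batch 2, and the last to the factor with no counts there. They lie at chr19:59458440-59458689 on the plus strand for Emx2, chr2:38339031-38339280 on the plus strand for the first start of Lhx2, chr10:42583591-42583840 on the minus strand for Nr2e1, and chr5:75075351-75075600 on the plus strand for Gsx2.
Emx2: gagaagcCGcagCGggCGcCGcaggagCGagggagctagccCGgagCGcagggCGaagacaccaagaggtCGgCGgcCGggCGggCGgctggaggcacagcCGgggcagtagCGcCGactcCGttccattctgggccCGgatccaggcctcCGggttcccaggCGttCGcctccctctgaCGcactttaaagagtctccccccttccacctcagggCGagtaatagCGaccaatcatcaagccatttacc
Lhx2: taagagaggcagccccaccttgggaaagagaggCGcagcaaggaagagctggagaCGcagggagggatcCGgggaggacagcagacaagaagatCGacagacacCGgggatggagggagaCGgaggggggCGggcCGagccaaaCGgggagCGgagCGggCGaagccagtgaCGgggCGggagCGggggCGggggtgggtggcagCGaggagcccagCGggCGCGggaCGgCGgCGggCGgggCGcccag
Nr2e1: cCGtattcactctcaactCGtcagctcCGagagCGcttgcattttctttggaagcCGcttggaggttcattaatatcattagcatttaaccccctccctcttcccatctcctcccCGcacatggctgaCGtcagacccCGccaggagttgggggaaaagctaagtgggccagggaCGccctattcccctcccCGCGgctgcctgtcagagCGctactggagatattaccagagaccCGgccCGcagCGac
Gsx2: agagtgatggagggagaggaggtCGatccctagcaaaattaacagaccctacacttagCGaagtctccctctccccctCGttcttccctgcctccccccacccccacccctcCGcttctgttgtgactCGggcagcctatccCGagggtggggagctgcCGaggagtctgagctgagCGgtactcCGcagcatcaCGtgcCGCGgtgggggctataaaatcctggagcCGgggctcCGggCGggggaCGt

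Most of these windows were dense in CG. The Emx2 window held 24 CG dinucleotides, a number reached by 12% of the 32851 promoter windows compared. The Lhx2 window held 25, reached by 10.7% of windows, while Nr2e1 held 15, reached by 27.3%, and Gsx2 held 16, reached by 25.4%. Over all 32851 windows the median was 6, and 10 of the 11 windows of these factors were above it. The exception was the second start of Nr2f1, with 2 CG dinucleotides against 22 at its first start. Emx1 had the densest window, with 30, and Six3 held 10. The letters TATAAA, searched on both strands, were found in 12.4% of all windows and, among these factors, only before Gsx2, where they begin 38 bases before the start. The letters TAATTA, a core shared by many homeodomain binding sites, were in 4.8% of all windows and in none of the 11. A match is a description of letters and shows no binding.

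The clearest difference among the regional factors lay between the batches. Emx2, Otx1, Lhx2 and Nr2e1 were lower in batch 2, by 2.82-fold, 2.21-fold, 1.74-fold and 1.46-fold, while Pax6 and Nr2f1 did not pass the test. With edgeR's quasi-likelihood test and Benjamini-Hochberg adjustment, 4 of the 6 tested factors were called at an adjusted p under 0.05. The batches differed widely, and 61.4% of the 17704 genes tested were called, 28.4% higher and 33.1% lower in batch 2. A share of 4 in 6 is therefore near the background and is no property of these factors. Their median log2 fold change was −0.67, and that of all genes tested was −0.03. In bulk RNA, fewer cells of a type and less RNA per cell cannot be told apart.

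Of the 6 tested factors, the largest change was that of Emx2 (ENSMUSG00000043969.5, chromosome 19), a homeobox gene that patterns the caudal and medial cortex and the hippocampus. Its level was 21.0, 21.6 and 19.0 CPM in gRNA and 23.1, 24.8 and 21.1 CPM in control libraries of batch 2, against 58.7, 59.3 and 61.0 CPM in gRNA and 56.7, 56.8 and 64.0 CPM in control libraries of batch 1. Every batch 2 library lay below every batch 1 library, whichever the treatment. The means were 21.8 ± 1.95 CPM in batch 2 and 59.4 ± 2.77 CPM in batch 1 (± SD of 6 libraries). The log2 fold change was −1.50 (SE 0.073, 95% interval −1.65 to −1.34, edgeR adjusted p = 5.14e-10), and 21.9% of all genes tested had a larger change in either direction.

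Lhx2 (ENSMUSG00000000247.12, chromosome 2), a LIM-homeodomain factor needed for cortical identity and for the eye field, had 59.7, 56.9 and 58.9 CPM in gRNA and 54.7, 58.0 and 48.7 CPM in control libraries of batch 2. In batch 1 it had 88.3, 91.1 and 98.4 CPM in gRNA and 93.9, 90.7 and 103 CPM in control libraries. The 2 batches did not overlap, and control library 6 was the lowest of all 12. Its means were 56.1 ± 4.07 CPM in batch 2 and 94.3 ± 5.57 CPM in batch 1, or −0.80 on the log2 scale (SE 0.066, 95% interval −0.94 to −0.66, edgeR adjusted p = 1.25e-07).

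Otx1 (ENSMUSG00000005917.16, chromosome 11), an orthodenticle-family homeobox gene of the developing forebrain and sense organs, had 27.0, 23.5 and 22.3 CPM in gRNA and 22.6, 24.1 and 36.2 CPM in control libraries of batch 2. Batch 1 libraries had 47.6, 63.0 and 56.7 CPM under gRNA and 52.7, 55.1 and 58.0 CPM under control. Again no library of one batch reached the range of the other, although control library 6 came closest, well above the other 5 of batch 2. Otx1 averaged 26.0 ± 5.27 CPM in batch 2 and 55.5 ± 5.19 CPM in batch 1, or −1.15 as log2 fold change (SE 0.12, 95% interval −1.40 to −0.89, edgeR adjusted p = 1.14e-06).

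Nr2e1 (ENSMUSG00000019803.12, chromosome 10), also called Tlx, is an orphan nuclear receptor that keeps forebrain neural stem cells dividing and undifferentiated. Its levels were 47.6, 46.5 and 48.7 CPM in gRNA and 46.0, 44.3 and 61.6 CPM in control libraries of batch 2, and 62.8, 80.0 and 70.9 CPM in gRNA and 69.9, 65.4 and 67.2 CPM in control libraries of batch 1. The batches were separate, but by a narrow margin, between control library 6 and gRNA library 1. Nr2e1 averaged 49.1 ± 6.29 CPM in batch 2 and 69.4 ± 5.97 CPM in batch 1. Its log2 fold change was −0.54 (SE 0.091, 95% interval −0.74 to −0.35, edgeR adjusted p = 0.000123).

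Pax6 (ENSMUSG00000027168.22, chromosome 2), a paired-box factor of cortical radial glia and of the eye, and Nr2f1 (ENSMUSG00000069171.15, chromosome 13), a nuclear receptor that patterns the caudal cortex, did not follow the other 4. For Pax6 the values were 78.3, 80.2 and 61.7 CPM in gRNA and 75.3, 81.2 and 102 CPM in control libraries of batch 2, against 67.7, 76.2 and 78.9 CPM in gRNA and 63.8, 62.6 and 79.0 CPM in control libraries of batch 1. The ranges overlapped, with gRNA library 6 the lowest and control library 6 the highest of all 12. The log2 fold change of Pax6 was 0.11 (95% interval −0.11 to 0.33, edgeR adjusted p = 0.371), which leaves room for a difference of either sign. Nr2f1 was at 79.8, 78.9 and 80.3 CPM in gRNA and 83.0, 84.6 and 126 CPM in control libraries of batch 2, against 70.1, 73.2 and 77.8 CPM in gRNA and 80.5, 70.3 and 85.7 CPM in control libraries of batch 1. Here too the batches overlapped, and control library 6 lay far above the rest. The log2 fold change of Nr2f1 was 0.17 (95% interval −0.05 to 0.38, edgeR adjusted p = 0.168). Under total counts with no scaling factor it was 0.24 with an edgeR adjusted p of 0.0449, which was the single alternative that called it.

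**Figure D1:**
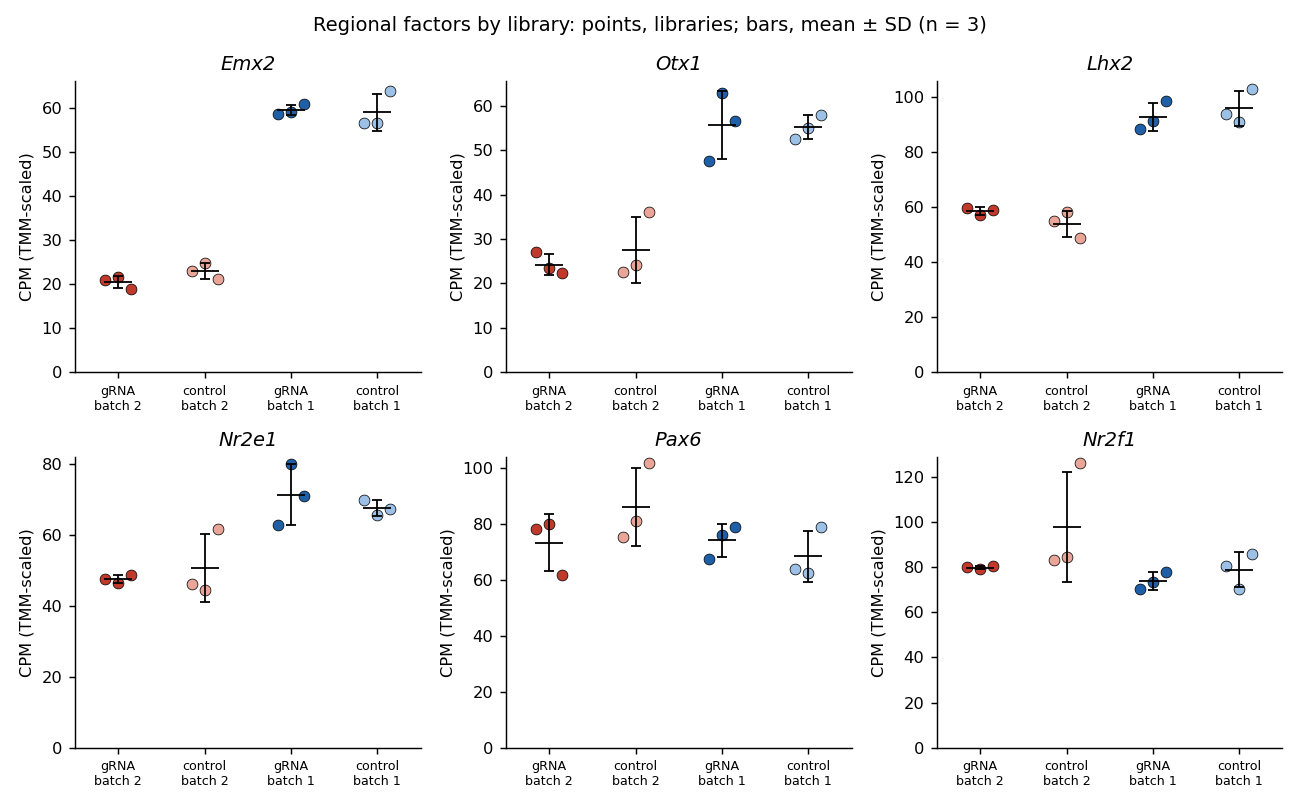
Levels of the 6 tested factors in CPM (vertical axes, from 0) in gRNA and control libraries of batch 2 and of batch 1; each point is a library, and bars give the mean ± SD (n = 3). Emx2, Otx1, Lhx2 and Nr2e1 separate by batch, with Emx2 between 19.0 and 24.8 CPM in batch 2 and between 56.7 and 64.0 CPM in batch 1, while Pax6 and Nr2f1 overlap.

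Ranges that did not overlap between the 6 libraries of batch 2 and the 6 of batch 1 were seen for 4 of the 6 tested factors, all lower in batch 2. Of all genes tested, 41.7% had such ranges, 22.5% with batch 2 lower. The same 4 factors were called within each treatment. In gRNA libraries alone (3 against 3), where edgeR called 49.6% of genes, the log2 fold changes were −1.55 for Emx2, −1.22 for Otx1, −0.68 for Lhx2 and −0.60 for Nr2e1, with adjusted p-values of 3.12e-06, 5.05e-05, 0.000153 and 0.00111. In control libraries alone, where edgeR called 40.2% of genes, they were −1.40, −1.04, −0.87 and −0.45, with adjusted p-values of 8.92e-05, 0.00382, 0.000492 and 0.049. Nr2e1 in control libraries thus lay just inside the threshold. Pax6 and Nr2f1 were not called in either, and Pax6 differed in sign, at −0.034 in gRNA and 0.30 in control libraries.

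Tested against a minimum fold of 2, where edgeR called 22.5% of genes, 1 of the 6 factors remained called, and that was Emx2. Leaving out any 1 library kept 4 factors called, with Emx2 between −1.53 and −1.45, Otx1 between −1.26 and −1.09, Lhx2 between −0.82 and −0.73 and Nr2e1 between −0.63 and −0.50 on the log2 scale.

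Emx1, Six3 and Gsx2 were at or near the limit of detection. Emx1 (ENSMUSG00000033726.9, chromosome 6), the pallial partner of Emx2, had 7, 2 and 0 counts in gRNA and 1, 10 and 10 counts in control libraries of batch 2, and 0, 1 and 1 counts in gRNA and 3, 1 and 0 counts in control libraries of batch 1. Single libraries of both batches were at 0, and the highest were 2 control libraries of batch 2. Summed, there were 30 counts in batch 2, or 0.228 to 0.482 CPM, and 6 counts in batch 1, or 0.0251 to 0.149 CPM (exact Poisson 95% intervals, which cover counting error only). With no low-count filter, where edgeR called 41.5% of 37217 genes, the log2 fold change of Emx1 was 2.09 (95% interval 0.76 to 3.41, adjusted p = 0.00724).

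Six3 (ENSMUSG00000038805.11, chromosome 17), a homeobox factor of the rostral forebrain and the eye, had 3, 3 and 4 counts in gRNA and 1, 7 and 8 counts in control libraries of batch 2. Batch 1 libraries had 2, 2 and 2 counts under gRNA and 1, 0 and 2 counts under control. The ranges overlapped, and the sums were 26 counts in batch 2 and 9 counts in batch 1, or 0.191 to 0.429 CPM and 0.047 to 0.195 CPM. Unfiltered, Six3 had a log2 fold change of 1.40 and an edgeR adjusted p of 0.0537, and was not called.

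Gsx2 (ENSMUSG00000035946.8, chromosome 5), a homeobox factor of the lateral ganglionic eminence, had 0 counts in all 6 libraries of batch 2. In batch 1 it had 0, 6 and 1 counts in gRNA and 4, 0 and 1 counts in control libraries, 12 in all. A count of 0 allows up to 0.0338 CPM over batch 2 as a whole, which is 3 counts of its total, and the pooled level in batch 1 was 0.137 CPM (0.0708 to 0.239). That pooled level was 4.06-fold above the batch 2 floor, a ratio that leaves out the counting error of batch 1. The low end of its interval, 0.0708 CPM, also lay above the floor. Of the 12 counts of batch 1, 10 came from 2 libraries. The unfiltered edgeR test gave an adjusted p of 0.00401.

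**Figure D2:**
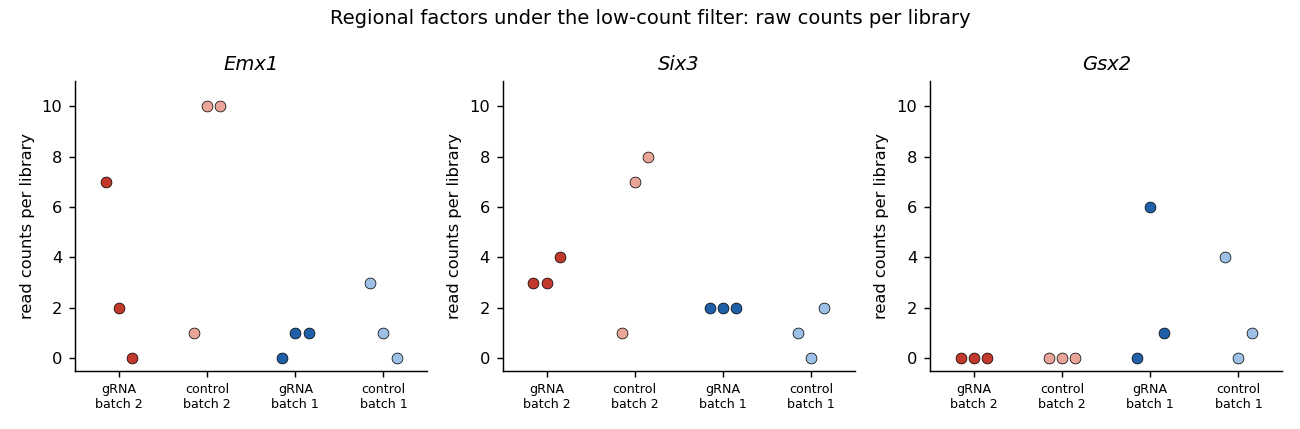
Raw read counts per library (vertical axes) of the 3 factors under the low-count filter, in gRNA and control libraries of batch 2 and of batch 1. No library exceeds 10 counts, and Gsx2 has 0 in each library of batch 2.

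Several of these genes lie beside a noncoding gene or have a close paralog, and these were read next. Emx2os, the noncoding gene next to Emx2, whose span does not overlap it and with 0 genes between, was lower in batch 2 together with it. It stood at 5.31 ± 1.16 CPM in batch 2 and 13.3 ± 0.98 CPM in batch 1, a log2 fold change of −1.38 (edgeR adjusted p = 1.78e-06) beside the −1.50 of Emx2. Six3os1, whose span overlaps that of Six3 in RefSeq, had 531 counts in batch 2 and 5 counts in batch 1. Its level was 5.89 ± 1.12 CPM in batch 2 and 0.0581 ± 0.0639 CPM in batch 1, with a log2 fold change of 6.44 (edgeR adjusted p = 4.72e-09). Near 0 in batch 1, Six3os1 could pass the low-count filter only through batch 2. Its direction was thus fixed beforehand, and its fold change and p-value are descriptions only. A830082K12Rik, whose span overlaps that of Nr2f1, was at 38.7 ± 5 CPM in batch 2 and 30.5 ± 3.15 CPM in batch 1. Its log2 fold change was 0.30 (edgeR adjusted p = 0.0199), a call lost in gRNA libraries alone and without control library 1, where it was 0.26. With the strand setting of the counting not given in the sources used here, reads of Six3 and Six3os1, of Nr2f1 and A830082K12Rik, and of Pax6 and Pax6os1 cannot be told apart by strand. Pax6os1 had 9 counts in batch 2 and 3 counts in batch 1.

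Paralogs of Nr2f1 and Gsx2 were read in the same way. Nr2f2, the nuclear receptor paralogous to Nr2f1, was 17.3-fold higher in batch 2, at 26.4 ± 3.58 CPM in batch 2 and 1.44 ± 0.35 CPM in batch 1 (log2 fold change 4.12, edgeR adjusted p = 5.35e-11). The third family member, Nr2f6, was at 41.7 ± 3.07 CPM in batch 2 and 35.9 ± 4.40 CPM in batch 1, with a log2 fold change of 0.17 (edgeR adjusted p = 0.0986). Upper-quartile scaling, total counts and leaving out control library 3 each called Nr2f6, at 0.21, 0.25 and 0.24. Gsx1, the subpallial paralog of Gsx2, had 1 count in batch 2 and 181 counts in batch 1, a ratio of 184 of batch 1 over batch 2 (exact 95% interval 32.6 to 7290, counting error only). It was at 2.07 ± 1.05 CPM in batch 1, and edgeR called it lower in batch 2 (adjusted p = 9.24e-07). Near 0 in batch 2, Gsx1 could pass the low-count filter only through batch 1, so that direction was fixed beforehand and the call is a description only.

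**Figure D3:**
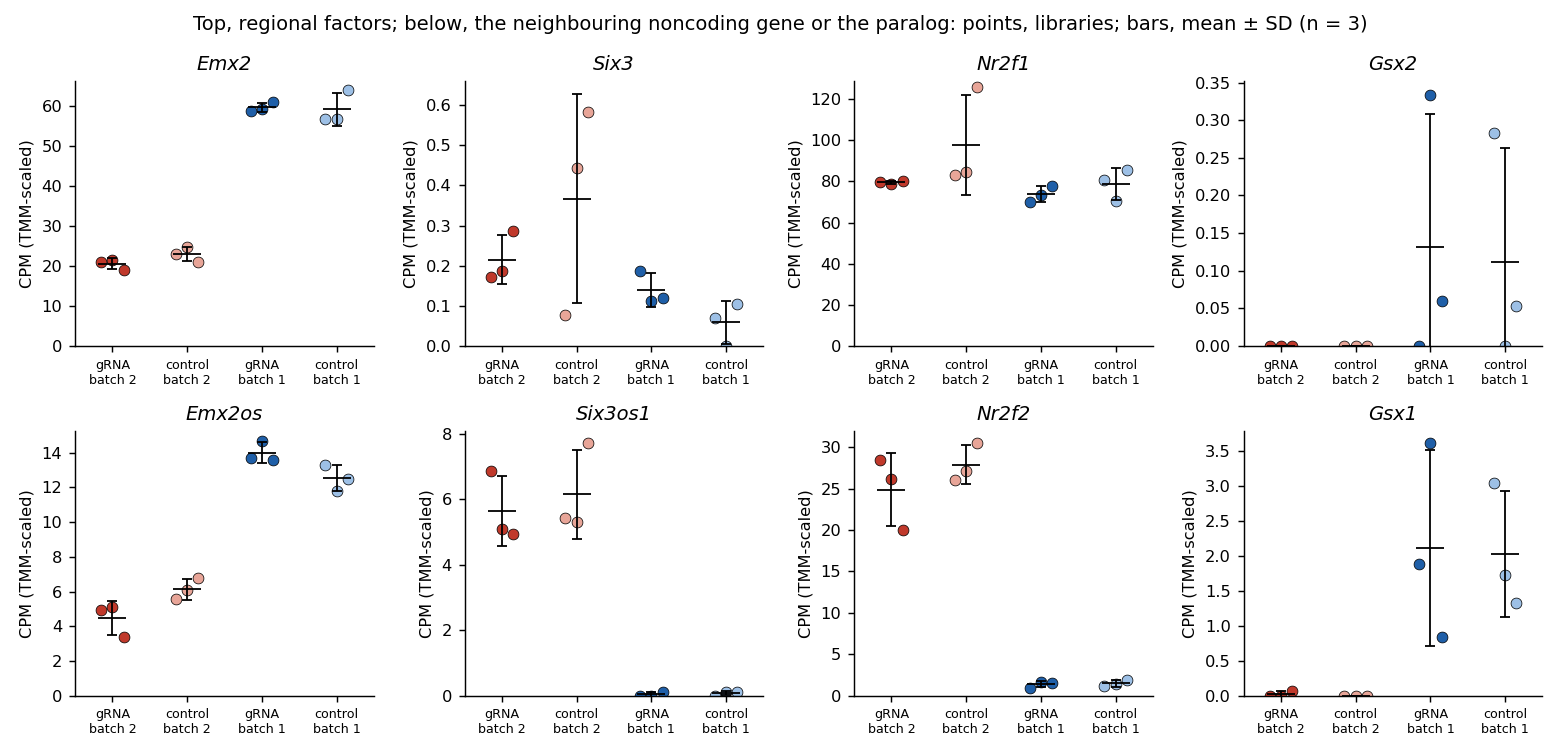
Levels in CPM (vertical axes, from 0) of 4 regional factors (top) and of the noncoding neighbour or paralog of each (bottom), in gRNA and control libraries of batch 2 and of batch 1; points are libraries, bars the mean ± SD (n = 3). Emx2 and Emx2os are both lower in batch 2, while Nr2f2 and Six3os1 are higher there and Nr2f1 overlaps between batches.

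Other regional genes show the setting in which the 9 factors were measured. Among all genes tested, 28.4% were called higher and 33.1% lower in batch 2. In each regional list, a gene near 0 in 1 batch could pass the filter only through the other batch. The direction of its change was then fixed beforehand, and the list counts and medians are descriptions only. Of 14 further pallial genes, 7 were tested, of which 5 fell and 1 rose in batch 2, with a median log2 fold change of −1.13. The 1 that rose was Nr2f2, read above as a paralog, at 4.12. Dmrta2, a regulator of Emx2 in the dorsal telencephalon, had a log2 fold change of −0.72 and Sp8, which patterns the cortex from its rostral pole, at −4.83 (edgeR adjusted p = 1.66e-05 and 6.7e-10). Of 12 subpallial genes, 6 were tested, and 4 rose and 2 fell, with a median of 1.55. Gsx1, also read above as a paralog, was among the 2 that fell. Dlx1, a factor of interneuron precursors, was at 5.22 ± 0.91 CPM in batch 2 and 0.645 ± 0.417 CPM in batch 1. Lhx6 had 243 counts in batch 2 and 0 in batch 1, a pooled level 79.8-fold above the floor of 3 counts. Sp9, a zinc-finger factor of the same region, was at 1.23 (edgeR adjusted p = 0.000541).

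Of 14 genes of the eye, hypothalamus and diencephalon, 5 were tested, and 3 rose and 1 fell, with a median of 7.92, or 6.38 with the gene at 0 in batch 1 set to its bound. Vax2, a factor of the ventral eye, had 28.1 ± 4.66 CPM in batch 2 and 0.121 ± 0.079 CPM in batch 1, and Tcf7l2, which marks the thalamus, was lower at −1.08 (edgeR adjusted p = 1.28e-11 and 1.51e-06). Positional genes from behind the forebrain also had counts in batch 2. Of 29 hindbrain and spinal axial genes, 9 were tested and 20 stayed under the filter, among them every listed Hoxb and Hoxc gene. Of the 9, 8 rose and 0 fell, with a median of 7.40. Vax2 and the Hox genes near 0 in batch 1 passed the filter only through batch 2, so their direction was set by the filter. Hoxa5 had 4565 counts in batch 2 and 1 count in batch 1. Hoxa7 had 4376 counts in batch 2 and 0 in batch 1, a pooled level 1440-fold above the floor of 3 counts. Bulk libraries cannot show whether the same cells held Hox and forebrain transcripts.

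The remaining lists moved in both directions. Of 11 genes of the midbrain and the mid-hindbrain boundary, 5 were tested. Of these, 2 rose, among them En2 at 0.56, and 1 fell, Gbx2 at −3.29, with a median of 0.56 (edgeR adjusted p = 0.00268 and 3.46e-06). En2 was not called in control libraries alone, at 0.49. Of 13 dorsoventral genes of the spinal cord 6 were tested, and 2 rose and 4 fell, with a median of −1.84. Nkx2-2, a ventral factor, was at 0.0536 ± 0.0641 CPM in batch 2 and 22.7 ± 8.13 CPM in batch 1, and Irx3 at 17.7 ± 3.60 CPM in batch 2 and 2.04 ± 0.96 CPM in batch 1 (edgeR adjusted p = 1.97e-09 and 1.57e-07). Near 0 in batch 2, Nkx2-2 passed the filter only through batch 1, so its direction was set by the filter.

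**Figure D4:**
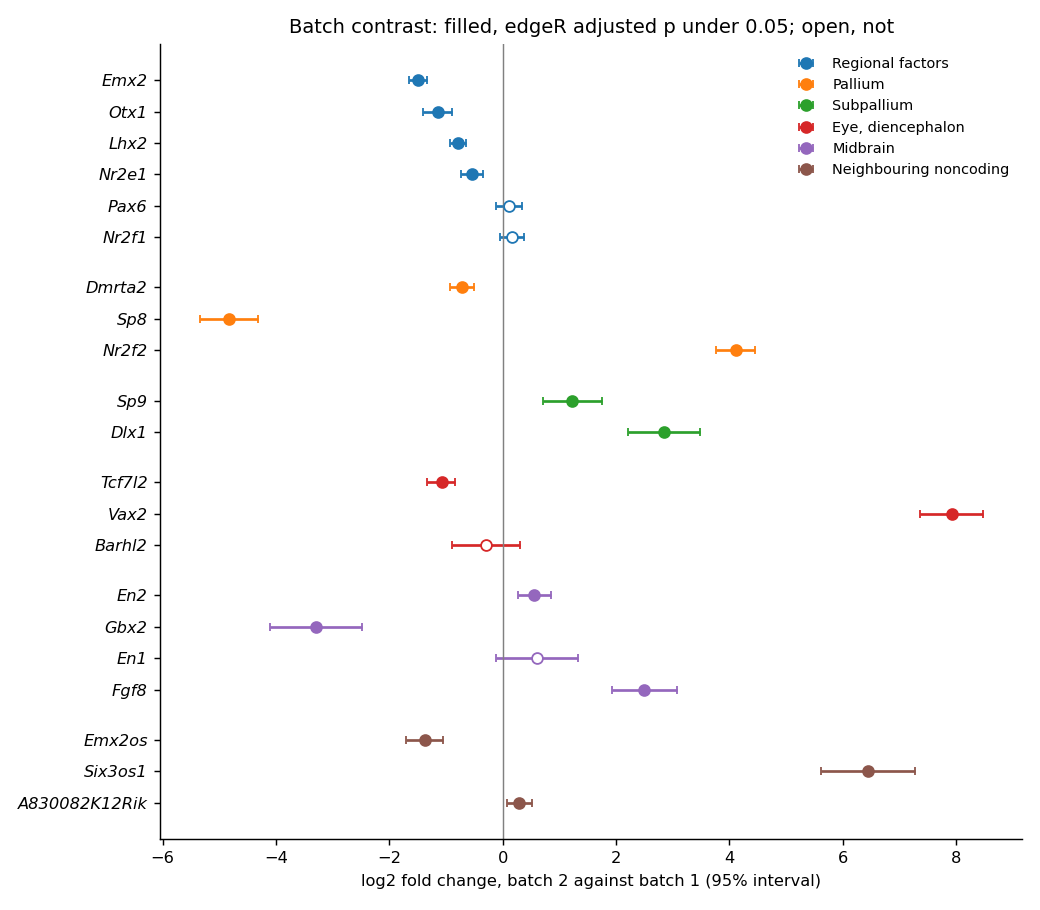
Log2 fold changes of batch 2 against batch 1 (horizontal axis, 95% intervals) for the 6 tested factors, named genes of other regional lists and the noncoding neighbours; filled points have an edgeR adjusted p under 0.05. The factors lie between −1.50 and 0.17, while Sp8 is at −4.83 and Vax2 at 7.92.

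Markers of other cell types also differed between the batches, and their part in the results was not tested. The single markers named beside each sum were chosen after their values were seen. Summed over 6 endothelial and mural markers, of which 3 of 4 tested fell, libraries held 3.36 to 8.29 CPM in batch 2 and 63.6 to 155 CPM in batch 1. Acta2, a smooth-muscle actin, made up nearly all of that sum in batch 1, at 0.547 ± 0.374 CPM in batch 2 and 105 ± 34.6 CPM in batch 1, while the endothelial receptor Kdr was at 3.63 ± 1.33 CPM in batch 2 and 2.76 ± 1.03 CPM in batch 1. For 8 mesenchymal markers, of which 2 of 3 tested fell and 1 rose, the sums were 33.5 to 72.4 CPM in batch 2 and 318 to 375 CPM in batch 1. Col3a1 and Twist1 had 0 counts in batch 2 but only 14 and 26 counts in batch 1, and both stayed under the filter. Prrx1 and Thy1 carried the mesenchymal sum, at 44.7 ± 8.08 and 0.0859 ± 0.0987 CPM in batch 2 and 298 ± 39.2 and 53.2 ± 23.3 CPM in batch 1, while Col1a1 was at 5.27 ± 6.26 CPM in batch 2 and 1.85 ± 0.227 CPM in batch 1. Astrocyte markers summed to 415 to 640 CPM in batch 2 and 674 to 1160 CPM in batch 1, with 4 of 6 tested lower and 1 higher. Gjb6, with 0 counts in batch 2 and only 6 counts in batch 1, stayed under the filter. Most of the astrocyte sum was Slc1a3, at 409 ± 43.4 CPM in batch 2 and 523 ± 128 CPM in batch 1. Slc1a2 was at 26.5 ± 24.9 CPM in batch 2 and 228 ± 54.4 CPM in batch 1, while S100b was at 30.5 ± 12.2 CPM in batch 2 and 9.22 ± 2.28 CPM in batch 1. Neuronal markers summed to 625 to 783 CPM in batch 2 and 768 to 973 CPM in batch 1, with 6 of 8 tested lower, 1 higher and a median log2 fold change of −3.47. Most of that sum was Map2, at 669 ± 52.3 CPM in batch 2 and 704 ± 87.3 CPM in batch 1, while Elavl4 was at 6.52 ± 1.92 CPM in batch 2 and 61.8 ± 6.46 CPM in batch 1. Neural stem and progenitor markers, 7 of 11 lower and 1 higher, summed to 1780 to 2420 CPM in batch 2 and 1920 to 2650 CPM in batch 1. Oligodendrocyte-lineage markers summed to 644 to 826 CPM in batch 2 and 514 to 807 CPM in batch 1, with 3 of 6 tested higher and 1 lower. Microglial markers summed to at most 2.90 CPM in batch 2 and 6.66 CPM in batch 1. The 9 regional factors themselves summed to 291 to 397 CPM in batch 2 and 395 to 457 CPM in batch 1.

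Between treatments, none of the 6 tested factors passed the test. Over both batches, with batch as a term, edgeR called 0 of 17704 genes (0%), while 230 had an unadjusted p under 0.05, and DESeq2 and limma-voom also called 0, with 216 and 232 at an unadjusted p under 0.05. Each count is a smaller share of genes than the 0.05 that tests with no difference would give on average. They thus show no surplus of small p-values, and the cause of the shortfall was not tested. The same held for the tests within each batch below and for the difference of the treatment effect between batches. When low genes were kept, edgeR called 1 gene, Fosb, at −1.08 (adjusted p = 0.0177), which is no regional factor and was chosen after its value was seen. The median log2 fold change of gRNA against control was −0.072 over the 6 factors and −0.007 over all genes tested.

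Nr2f1 had the largest difference of the 6. It averaged 79.7 ± 0.69 CPM in gRNA and 97.8 ± 24.3 CPM in control libraries of batch 2, and 73.7 ± 3.86 CPM in gRNA and 78.8 ± 7.85 CPM in control libraries of batch 1 (SD, n = 3 each). Its log2 fold change was −0.20 (SE 0.1, 95% interval −0.42 to 0.013, edgeR adjusted p = 1), and −0.087 without control library 6. The gRNA and control ranges overlapped in batch 1. They did not overlap in batch 2, where the other 2 control libraries were at 83.0 and 84.6 CPM. The share of all genes with such separate ranges of 3 and 3 libraries was not counted, so the separation is a description only.

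The other 5 lay closer to 0. For Emx2 the log2 fold change was −0.077 (95% interval −0.23 to 0.076), with 20.6 ± 1.36 CPM in gRNA and 23.0 ± 1.84 CPM in control libraries of batch 2 and 59.7 ± 1.20 CPM in gRNA and 59.2 ± 4.19 CPM in control libraries of batch 1. Otx1 was at −0.093 (−0.34 to 0.16), Pax6 at −0.067 (−0.29 to 0.15), Lhx2 at 0.029 (−0.11 to 0.17) and Nr2e1 at −0.013 (−0.21 to 0.18), each with an edgeR adjusted p of 1. The widest of these intervals was that of Otx1, and differences inside an interval are not excluded by these libraries. Signs were not stable, and without control library 6, Lhx2 was at −0.0057, Pax6 at 0.021, Otx1 at 0.029 and Nr2e1 at 0.076.

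Within each batch, every interval again included 0. In batch 2 alone, gRNA against control gave −0.15 for Emx2, −0.18 for Otx1, 0.13 for Lhx2, −0.081 for Nr2e1, −0.23 for Pax6 and −0.29 for Nr2f1, each with an edgeR adjusted p of 0.998. In batch 1 alone the values were 0.0092 for Emx2, 0.0097 for Otx1, −0.053 for Lhx2, 0.074 for Nr2e1, 0.11 for Pax6 and −0.099 for Nr2f1, each with an edgeR adjusted p of 1. Among all genes, edgeR called 0 of 15647 in batch 2, with 116 at an unadjusted p under 0.05, and 0 of 16988 in batch 1, with 147. The difference of the treatment effect between batches, tested as an interaction, was called for 0 of 18279 genes, with 236 at an unadjusted p under 0.05, and DESeq2 called 0, with 180. Pax6 had the largest such difference among the factors, at −0.35 (SE 0.19, 95% interval −0.76 to 0.071, edgeR adjusted p = 1), and the other 5 lay between −0.19 and 0.18.

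**Figure D5:**
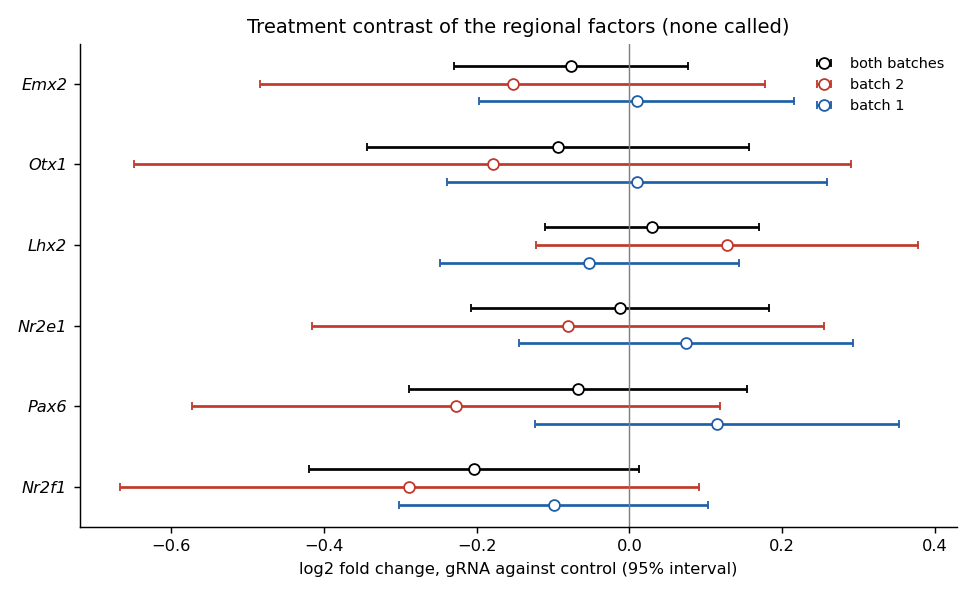
Log2 fold changes of gRNA against control (horizontal axis, 95% intervals) for the 6 tested factors, over both batches and in batch 2 and batch 1 alone; open points did not pass the test. All 18 intervals include 0.

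The low factors gave no readable treatment difference. Emx1 had 9 counts in gRNA and 21 counts in control libraries of batch 2, and 2 counts in gRNA and 4 counts in control libraries of batch 1. The exact Poisson intervals of its pooled level overlapped in batch 2, at 0.0886 to 0.368 CPM in gRNA and 0.307 to 0.757 CPM in control libraries. Their overlap is no test of a difference, and they cover counting error only. Single libraries of batch 2 held 7, 2 and 0 counts in gRNA and 1, 10 and 10 counts in control. No gene of the other regional lists was called between treatments in the edgeR test.

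Control library 6 was the highest or the lowest library of batch 2 for 5 of the 6 tested factors. It held 36.2 CPM of Otx1, 126 CPM of Nr2f1, 61.6 CPM of Nr2e1 and 102 CPM of Pax6, each the highest of its batch, and 48.7 CPM of Lhx2, the lowest. Emx2, at 21.1 CPM, lay within the range of the others. The 9 factors summed to 397 CPM in it and to 291 to 318 CPM in the other 5. Its summed stem and progenitor markers were at 2420 CPM, against 1780 to 2030 CPM in the others. Astrocyte markers stood at 640 CPM in it, against 415 to 586 CPM, and oligodendrocyte-lineage markers at 826 CPM, against 644 to 709 CPM. Neuronal markers held 783 CPM in it, against 625 to 730 CPM, and mesenchymal markers 72.4 CPM, against 33.5 to 57.6 CPM. Endothelial and mural markers held 8.29 CPM, against 3.36 to 5.36 CPM, and pluripotent and epithelial markers 1.67 CPM, against 0.507 to 0.809 CPM. Of the marker sums, only the microglial one was lower in it, at 1.31 CPM, against 1.62 to 2.9 CPM. The part of these markers in the values of the regional factors was not tested.

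The genes whose levels ran most like each factor were listed as a description, by Pearson's r of log2 CPM over the 12 libraries among the 11414 genes that averaged 50 counts or more per library. The libraries share their batch, depth and preparation, so that r over all 12 is carried largely by the 2 batches for the factors that differed between them. Emx2 ran closest to Perp and Col18a1 (r = 0.996 for both), Lhx2 to Entpd7 (0.995) and Cxadr (0.994), and Otx1 to Oxsm (0.994) and Rtn4rl1 (0.991). For Nr2e1 the closest were Zyg11b (0.978) and Tspyl4 (0.975), for Nr2f1 Plxnb1 (0.968) and Wipi2 (0.962), and for Pax6 Kat6b (0.956) and Rftn2 (0.953). Within the 6 libraries of batch 2 and the 6 of batch 1, Emx2 and Perp had an r of 0.811 and 0.54, while Lhx2 and Entpd7 had 0.946 and 0.944.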

How the data were processed

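RNA of 12 libraries of mouse neural stem cells was counted per gene. The authors deposited raw read counts per Ensembl gene, made on GRCm39 with Trimmomatic, STAR, SAMtools and HTSeq, per the submitters' processing notes, with versions, annotation release and strand setting not given in the sources used here. Per the labels' protocols, RNA came from an RNeasy Mini kit and libraries were stranded total RNA with ribosomal RNA removed. The 5 HTSeq summary lines were left out; they held 3.22% to 4.06% ambiguous and 1.87% to 2.77% not uniquely aligned reads. None of the 66 library pairs had identical counts.

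The tool was edgeR 4.0.16 (R 4.3.3), run with filterByExpr with a minimum count of 10, TMM scaling, the quasi-likelihood test and Benjamini-Hochberg adjustment at 0.05 over all genes tested. Batch 2 against batch 1 had treatment as a term, gRNA against control had batch as a term, and their interaction was tested. Intervals are at 95%; those of fold changes come from the fit, while Poisson intervals of pooled counts and floors of 3 counts cover counting error only. Libraries are numbered in accession order within a treatment, with 1 to 3 in batch 1 and 4 to 6 in batch 2. Alternatives used DESeq2 1.42.0, limma-voom (limma 3.58.1), other scalings and filters, single treatments or batches, a minimum fold of 2 and leaving out each library; leaving out both libraries numbered 6 was added after seeing the data. The fits were tested on simulated counts. The regional factors and the other lists were chosen with earlier results of these data known. Of each other list, at most the 4 genes with the highest mean CPM are named, plus genes on which a result turns; 2 of the genes so taken are not reported here and remain in the tests and list counts. The 4 footprint libraries were not analysed here: 0 of their names in the deposited P-site table match a label, and its transcript identifiers were not paired with genes.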

Additional observations from a re-analysis of the deposited data

Results flagged for a closer look

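Of the 12 groups of 6 libraries screened (6 regional factors in each batch), 3 held a library far from the other 5, where chance alone gives about 1 in 20 such groups. All 3 were control library 6 of batch 2, so they are not independent. Its 36.2 CPM of Otx1 lay 0.664 of the group's range above the nearest library, past Dixon's critical value for 6 samples. For Nr2f1 it held 126 CPM, with a gap of 0.879 of the range, and for Nr2e1 61.6 CPM, with a gap of 0.745.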

How the results depend on the processing

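Between the batches, 10879 genes were called, 6730 in control libraries alone, 3981 with a minimum fold of 2 and 10528 to 12074 with 1 library left out. Of the 6 tested regional factors, 1 was called with a minimum fold of 2, 5 with total counts, and 4 in every other alternative run. With no low-count filter, Emx1 and Gsx2 passed as well. Pax6 turned to −0.034 in gRNA libraries alone, and was 0.027 to 0.18 with 1 library left out, as Nr2f1 was 0.055 to 0.21. The median of all genes moved by under 0.1 between scalings, from −0.03 with TMM to 0.052 with total counts, and the share of calls that were higher in batch 2 was 46.2% with TMM and 53.1% with total counts.

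Between treatments, 1 gene was called without the low-count filter and 0 in the other alternatives. Nr2e1 turned to 0.024 with total counts, 0.0043 with limma-voom, 0.00047 with no batch term, 0.061 without both libraries numbered 6 and 0.074 in batch 1. Without both libraries numbered 6, Lhx2 was −0.021, Pax6 0.067 and Otx1 0.041. In batch 1, Emx2 was 0.0092, Lhx2 −0.053, Pax6 0.11 and Otx1 0.0097. With 1 library left out, Emx2 ranged over −0.11 to −0.046, Lhx2 −0.0057 to 0.069, Nr2e1 −0.053 to 0.076, Nr2f1 −0.24 to −0.087, Otx1 −0.14 to 0.029 and Pax6 −0.12 to 0.021. The interaction then ranged over −0.32 to 0.061 for Otx1, −0.30 to 0.042 for Nr2f1 and −0.25 to 0.020 for Nr2e1, each positive value without control library 6. The cause of these changes was not tested.

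No paired analysis was possible because the RNA-seq labels give no replicate numbers. The planned counts of P-sites per gene were not run, since transcripts could not be paired with genes here. Depth limits Emx1, Six3 and Gsx2, none of which exceeds 10 counts in a library, and 6 libraries a group limit the treatment contrast.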
